A study of Mus musculus with 2 samples.

Results

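The 8 genes described here are Aif1, Fcgr3, Msr1, Mrc1, C1qb, C1qc, Trem2 and Lcp1, all of them commonly used as genes of macrophages. They were chosen by name, with their ratios on these arrays already known, because some were higher and some lower after busulphan, so their directions are a description and not a finding. They are 8 of 9441 genes compared, and all 10 of their non-control probes, of 15208 on the array, were well above background on both arrays. The busulphan preparation was made from testes of Swiss males, adults aged 3 months, which had been given busulphan at 25 mg/kg body weight 1 month earlier. The control preparation came from untreated adult males of the same strain and age. Both were isolated as Sertoli cells, the somatic cells that nurse germ cells inside the seminiferous tubule, by digestion with collagenase and hyaluronidase and retention on a strainer, with no culture and no sorting against other cells. Busulphan is an alkylating drug used to deplete germ cells, and the series asked how the Sertoli cell profile differs after it. The number of mice behind each preparation is not stated. Each group is 1 array, which allows neither a test nor a replicate check, so each difference below is one between 2 preparations.

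Macrophages live in the connective tissue between the tubules and on the tubule wall, where they are known to support Leydig cells and spermatogonia and to keep the tissue tolerant. They carry receptors that take up debris, modified proteins and sugars, receptors that bind antibody, and they are the main makers of C1q, the recognition molecule of the classical complement pathway. Their activating receptors signal through small adaptor chains with an ITAM, a tyrosine motif that recruits the kinase Syk.

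The preparations differed in more than macrophage genes, and this applies to every value below. Of all genes compared, 31.3% were at least 2-fold higher and 29.5% at least 2-fold lower. The 12 spermatid markers compared all lay at or below a log2 ratio of -1.83 in the busulphan preparation, around a median of -5.95. Their summed signal was 41024 on the busulphan array and 603844 on the control array, where 8 of the 12 spots were saturated. Spermatocyte markers had a median of -2.84, with 9 of 11 past 2-fold on the lower side and none on the higher, between Pgk2, a germ cell glycolytic enzyme, at -5.25 or below and Dmc1, a recombinase of meiosis, at 0.49. Sertoli cell markers had a median of 3.53, with 14 of 15 past 2-fold on the higher side, between the transcription factors Gata4 (0.73, other probe 3.52) and Sox8 (5.46, other probe 3.19), and summed signals of 192307 on the busulphan and 27492 on the control array. The busulphan sum is limited by 2 saturated spots, Clu at 68019 and Ctsl at 72423. No compared member of these lists was below background on either array. The part of these shifts in the ratios of the macrophage genes was not tested, and in such mixed preparations fewer cells of a type and less RNA per cell cannot be told apart. The busulphan array had 79.3% and the control array 80.9% of probes well above background, and the number of arrays limits the precision.

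Each value rests on 60-base probes, and 5 of the 10 are shown, which cover both directions and the gene that did not differ. For Aif1 and Msr1 the dimmer probe is shown, not the one that gave the gene-level value. They are given 5′ to 3′ in the sense of the transcript, all in lower case, with the positions of the files on mouse build mm9. The files do not say in which exon or untranslated region a probe lies. The Aif1 probe covers 246 bases of genome with its 60 bases and so is placed across a gap, as over a splice junction. No probe of any other gene on the array shared a run of 20 bases with any of the 10 probes. Probes were compared with each other only, not with the transcripts of other genes.
Aif1, chr17:35308497-35308742, minus strand: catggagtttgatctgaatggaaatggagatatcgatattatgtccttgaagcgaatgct
Fcgr3, chr1:172984129-172984188, minus strand: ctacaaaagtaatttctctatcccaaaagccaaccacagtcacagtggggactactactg
Msr1, chr8:40709296-40709355, minus strand: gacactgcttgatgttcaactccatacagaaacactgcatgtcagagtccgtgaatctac
C1qb, chr4:136436578-136436637, minus strand: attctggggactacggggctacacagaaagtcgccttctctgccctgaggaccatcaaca
Lcp1, chr14:75623887-75623946, plus strand: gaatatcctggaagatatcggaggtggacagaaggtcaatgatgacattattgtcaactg

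Of the 8 genes, 4 reached 2-fold on the higher side in the busulphan preparation, against a background of 31.3% of all genes, and 3 reached it on the lower side, against 29.5%. Together 7 of the 8 were past 2-fold in one direction or the other, against 60.8% of all genes. Since the genes were picked for these ratios, nothing is read from those shares. The gene left over, C1qb, lay within 2-fold, and its direction depended on the scaling. The 7 genes past 2-fold were also past 8-fold, a size reached upwards by 4.83% and downwards by 9.92% of all genes. Their log2 ratios ran from -5.46 to 5.46, with a median of 1.94 over the 8 genes, while the median over all genes was 0.07. Ratios are those of processed spot signals after each array was scaled to its 75th percentile, busulphan over control. The error given with a ratio is the scanner software's own for the pair of spots, which leaves out the preparation and the labelling.

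**Figure D1:**
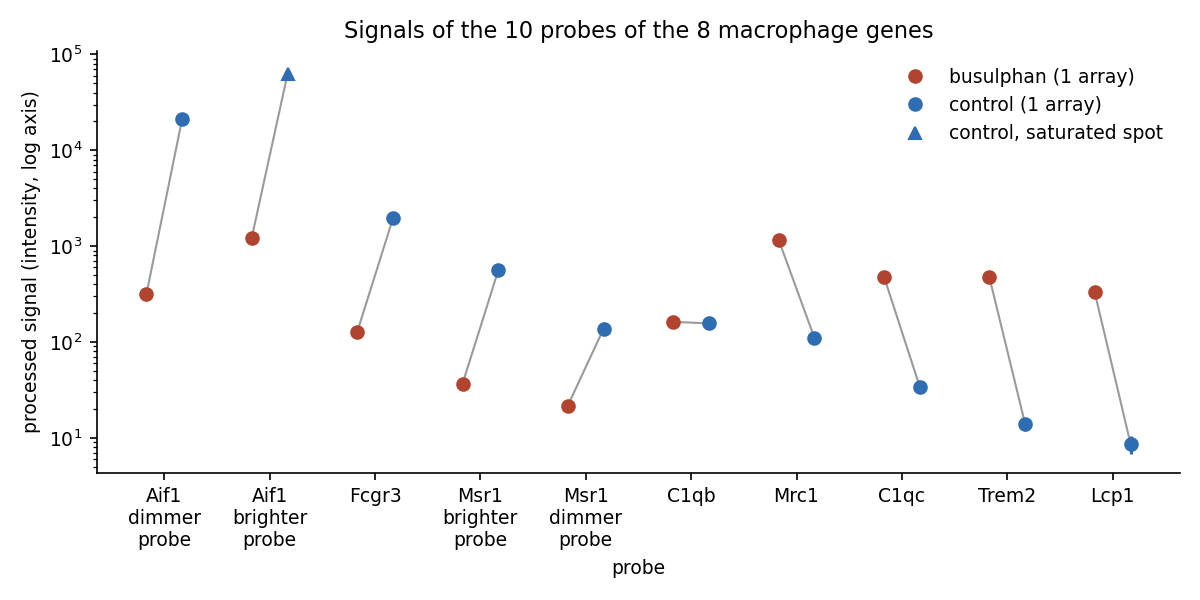
Processed signal (intensity, log axis) of each of the 10 probes on the busulphan array, left, and the control array, right, with a line joining the 2 spots of a probe and bars for the software's error, most of them smaller than the symbol. The Aif1, Fcgr3 and Msr1 probes are lower on the busulphan array, C1qb is level at 163 and 156, and Mrc1, C1qc, Trem2 and Lcp1 are higher.

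Aif1 encodes the calcium-binding protein also called Iba1, the usual stain for macrophages and microglia, where it binds actin in ruffling membranes, and the protein is also described in spermatids. Its brighter probe, at chr17:35307959-35308018, had a signal of 1230 on the busulphan array and 62716 on the control array. The control spot was saturated in 64 of its 64 pixels, so that Aif1 was at least 44.1-fold lower in the busulphan preparation (log2 ratio of -5.46 or below). The dimmer probe, shown above, was saturated on neither array, with a signal of 315 on the busulphan and 21419 on the control array. It gave a full ratio, 58.8-fold lower (log2 -5.88, software error 0.20). Both probes of the gene, which lie 538 bases apart, therefore had the same direction, and the raw spot means without background correction or scaling differed 63.1-fold at the dimmer probe. By its bound Aif1 held rank 116 from the lowest of 9441 genes, within the span of the spermatid markers, of which the least low, Prm1, stood at -1.83 or below and the lowest, the kinase Tssk6, at -7.29. The part of germ cell RNA in the Aif1 signal was not tested.

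Fcgr3 encodes the low-affinity activating receptor for IgG of macrophages and natural killer cells. Its single probe had a signal of 127 on the busulphan array and 1950 on the control array, 13.3-fold lower (log2 -3.74, software error 0.20). Its signalling chain and the related Fc receptors did not share this direction. Of the 18 other compared genes in the list of Fc receptors and ITAM signalling, 4 were past 2-fold downwards and 9 upwards. Fcer1g, the signalling chain that Fcgr3 needs to reach the cell surface, was 8.95-fold higher, at 518 on the busulphan and 66.9 on the control array. Fcgr1, the high-affinity receptor that uses the same chain, was 7.73-fold higher, at 93.9 and 14.0 on those arrays. Fcgr2b, the inhibitory receptor, was 4.74-fold higher by its brightest probe, at 158 on the busulphan and 38.5 on the control array, and its other probes gave log2 ratios of 2.32 and 3.19. Fcgr4 was near background on both arrays, at 9.45 on the busulphan and 11.1 on the control array (log2 -0.02). Fcgr2b and Fcgr4 are close relatives of Fcgr3 in sequence. No probe of theirs shared a run of 20 bases with the Fcgr3 probe, which compares probes and not transcripts. Binding of their RNA to the Fcgr3 probe was not tested.

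Msr1 encodes the class A scavenger receptor, which takes up modified lipoproteins and other polyanions. Its brighter probe, whose 60 bases span 2162 bases of genome at chr8:40691292-40693453, had a signal of 36.7 on the busulphan array and 562 on the control array, 13.3-fold lower (log2 -3.73, software error 0.21). The other probe, shown above and 18004 bases away, had 21.8 on the busulphan and 138 on the control array, 5.49-fold lower (log2 -2.46, software error 0.22). Both probes were lower, and their log2 ratios were apart by -1.27 (brighter minus dimmer, software error 0.31). With normexp background correction, which shrinks the ratios of dim spots, the probes gave -2.57 and -1.09.

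Mrc1 encodes the mannose receptor CD206, an endocytic lectin of resident macrophages. Its probe, at chr2:14253304-14253363, had a signal of 1169 on the busulphan array and 111 on the control array, 12.2-fold higher (log2 3.61, software error 0.21). Mrc1 and Msr1, both uptake receptors of the macrophage surface, thus stood on opposite sides of 0. Mrc1 held rank 210 from the highest of all genes.

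C1q is assembled from the products of 3 genes, C1qa, C1qb and C1qc, which lie side by side on chromosome 4. The C1qc probe, at chr4:136445766-136445825, had a signal of 481 on the busulphan array and 34.1 on the control array, 16.3-fold higher (log2 4.03, software error 0.22). C1qa was 10.9-fold higher, at 507 on the busulphan and 54.0 on the control array. The C1qb probe had nearly the same signal on both arrays, 163 on the busulphan and 156 on the control array (log2 0.27, software error 0.20), and its raw spot means were 191.5 and 191.3. The sign of the C1qb ratio turned with spike-in scaling (-0.63) and with loess (-0.18). Each chain gene rests on 1 probe.

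Trem2 encodes a lipid-sensing receptor of macrophages, microglia and osteoclasts, and Tyrobp its ITAM adaptor, also called DAP12. The Trem2 probe, at chr17:48491522-48491581, had a signal of 476 on the busulphan array and 13.9 on the control array, 39.4-fold higher (log2 5.30, software error 0.26). Tyrobp was 9.22-fold higher, at 196 on the busulphan and 24.6 on the control array. Apoe, a ligand of Trem2, was 4.30-fold higher, at 14899 on the busulphan and 4009 on the control array.

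Lcp1 encodes L-plastin, which bundles actin in leukocytes. Its probe had a signal of 330 on the busulphan array and 8.70 on the control array, 43.9-fold higher (log2 5.46, software error 0.34). Lcp1 held rank 5 and Trem2 rank 9 from the highest of 9441 genes. Both rest on control spots near background, where the lowest signal counted as well above it was 7.50, and of the 8 genes these moved most with normexp. With it, Lcp1 was 6.79-fold and Trem2 8.83-fold higher.

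**Figure D2:**
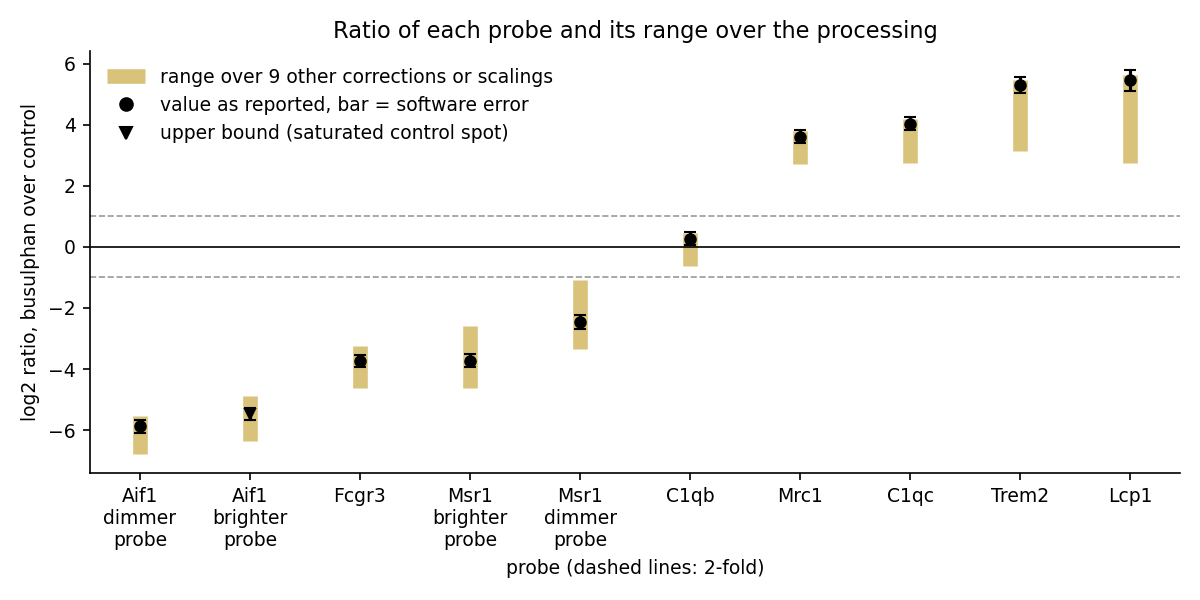
Log2 ratio of busulphan over control for each of the 10 probes with the software's error, and in yellow its range over 9 other background corrections or scalings; the triangle is an upper bound from a saturated control spot. The 5 probes of Aif1, Fcgr3 and Msr1 stay below -1 and the 4 of Mrc1, C1qc, Trem2 and Lcp1 above 1 over these settings, while the range of C1qb, from -0.63 to 0.44, spans 0.

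Over 14 other settings each of these 7 genes kept its direction and its place past 2-fold by its gene-level value. Not all of these settings could change a value. Every probe of these genes was well above background on both arrays, so the filters on dim probes had no effect. The deposited log2 table is the same signal shifted by a constant on each array. For a gene with 1 unsaturated probe, the settings on probe summary, bounds and saturation also changed nothing. Aif1 lay between -6.36 and -4.87, Fcgr3 between -4.63 and -3.24 and Msr1 between -4.62 and -2.57. On the other side Mrc1 lay between 2.72 and 3.78, C1qc between 2.75 and 4.20, Trem2 between 3.14 and 5.48 and Lcp1 between 2.76 and 5.63.

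Under the main scaling, most other compared genes of 6 lists related to the 8 genes were higher after busulphan. These lists, called myeloid below, also hold genes not particular to myeloid cells, such as Stab2. The counts are therefore of the lists and not of a lineage. The 6 lists of related genes, which were chosen with earlier results of these data known, held 84 compared genes besides the 8, each counted once. Of these, 53 (63.1%) were at least 2-fold higher, beside 31.3% of all genes, and 10 (11.9%) at least 2-fold lower, beside 29.5%, with a median log2 ratio of 1.47. With spike-in scaling, under which the median of all genes was -0.82, the counts became 33 higher and 19 lower, beside 16.0% and 46.6% of all genes, and the sign of Cebpa was negative when probes were summarised by their median. Normexp gave 39 higher and 8 lower, beside 24.6% and 22.7% of all genes.

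The list of myeloid identity and macrophage surface genes shared no member with the 8. By brightest probes under the main scaling it was the one of the 6 with no gene past 2-fold downwards. Past 2-fold upwards were 20 of 25, beside 31.3% of all genes, around a median of 2.69. Dimmer probes of Cx3cr1, Itgax and Cebpa stood at -2.04 or below, -1.61 and -1.66, while those of Maf stood at 3.18 and at 2.12 or above. Pf4, a platelet chemokine that resident macrophages also express, was 44.3-fold higher, and Folr2, the folate receptor of resident macrophages, at least 16.5-fold higher with a control spot below background. With normexp their log2 ratios were smaller, 3.37 for Pf4 and 1.58 for Folr2, so the Folr2 bound holds for the main setting only. Csf1r, the receptor for the growth factor that macrophages live on, was 8.43-fold higher by its brightest probe, at 380 on the busulphan and 52.1 on the control array, though its other probes gave log2 ratios of 1.74 and -0.96. Ptprc, the leukocyte antigen CD45, was 4.26-fold higher by the brightest of 4 probes, while another gave a log2 ratio of 0.70 and the remaining 2 were below background on both arrays. The lowest members were H2-Ab1, an MHC class II chain, at -0.56 and Gas6, a bridging ligand for dying cells, at -0.30. With spike-in scaling these were past 2-fold downwards, at -1.46 and -1.20.

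Defining markers were not all detected. Adgre1, the F4/80 antigen, was level at 367 on the busulphan and 415 on the control array (log2 0.03), with its other probe at -0.73. Spi1, the transcription factor PU.1 of the lineage, and Cd163, a hemoglobin scavenger receptor, were not well above background on either array. Itgam, which encodes CD11b, a chain of a complement receptor, was at least 2.31-fold higher, at a signal of 15.0 on the busulphan array. This value fell short of 2-fold with normexp and with spike-in scaling. With spike-in scaling it was a bound of 0.32 on the log2 scale, which does not place the gene within 2-fold.

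The other 5 lists each hold at least 1 of the 8 genes and are described by counts over all their compared members. The counts of all 5 stand beside 31.3% of all genes past 2-fold upwards and 29.5% downwards. In the complement list the median was 1.45, and 10 of 15 were past 2-fold upwards and 1 downwards. Its lowest members were Cd55, a membrane inhibitor of complement, 17.6-fold lower at 158 on the busulphan and 3210 on the control array, and C4b at -0.12. Of the Fc receptors and ITAM signalling genes, 9 of 19 were past 2-fold upwards and 5 downwards. Their median was 0.33, and 0.00 with spike-in scaling. Without Fcgr3, which was chosen for its low ratio, the other 18 held 9 upwards and 4 downwards, around a median of 0.73. Next to Fcgr3 the lowest was Vav1, a guanine nucleotide exchange factor of blood cells, 10.2-fold lower, with its other probe at -0.85. Syk, the kinase that docks on ITAMs, was 7.41-fold higher.

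Trem, Siglec and other paired receptors had a median of 2.12, with 6 of 8 past 2-fold upwards and 1 downwards. Lilrb4a, an inhibitory receptor of myeloid cells, was 6.04-fold higher, Treml1 stood at -0.39 and Cd33, a sialic acid lectin, was 6.72-fold lower. Scavenger and lectin receptors had a median of 1.08, with 9 of 18 past 2-fold upwards and 2 downwards. Olr1, a receptor for oxidised lipoprotein, was at least 28.7-fold and Scarb2, a lysosomal membrane protein, 15.5-fold higher. The control spot of Olr1 was below background, and with normexp its log2 ratio was 2.20, below that bound. Next to Msr1 the lowest was Stab2, a hyaluronan receptor of sinus endothelium, 2.64-fold lower, which was within 2-fold with normexp (-0.86).

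The list of the leukocyte actin cytoskeleton held Lcp1 and Aif1 as its extremes. It had 6 genes past 2-fold upwards, 4 downwards and none between, around a median of 1.46. Cotl1, a small actin-binding protein, was 7.48-fold higher, at 18921 on the busulphan and 2922 on the control array. The lowest after Aif1 was Fmnl1, a formin of leukocytes, 13.5-fold lower at 8.05 on the busulphan and 126 on the control array. Its busulphan spot was near background, and with normexp its log2 ratio was -1.32.

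The 10 genes lower besides Aif1, Fcgr3 and Msr1 thus were Cd55, Fmnl1, Vav1, Dock2, Rac2, Pik3ap1, Cd33, Inpp5d, Stab2 and Lat2. Those not yet named were picked out after their values were seen. Dock2 (-2.96) and Rac2 (-2.84), an exchange factor and the GTPase it activates in blood cells, had the same direction, and the other Rac2 probe gave -1.66. Inpp5d, the inositol phosphatase SHIP1, stood at -2.37. Pik3ap1 stood at -2.77 by its brightest probe while its other probe gave 0.53, and Lat2 stood at -1.02 and was within 2-fold with normexp (-0.63).

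**Figure D3:**
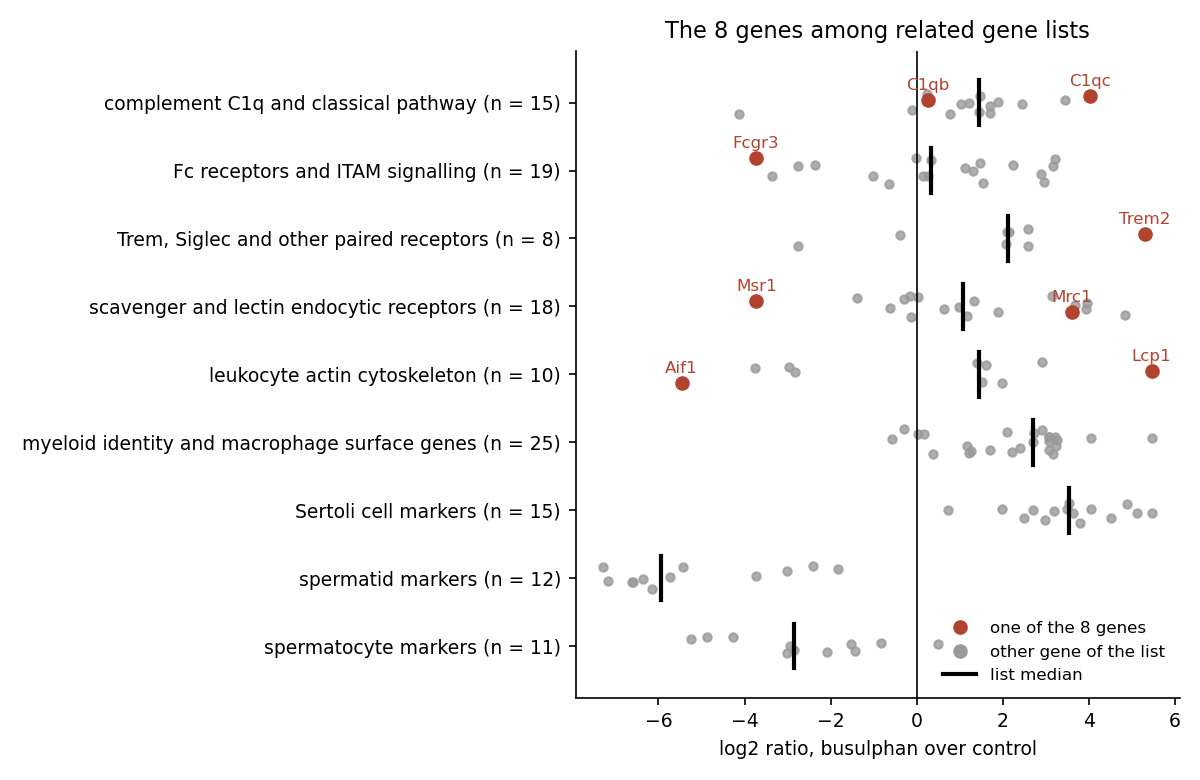
Log2 ratio of busulphan over control for the compared genes of the 6 myeloid lists and, below them, the Sertoli cell, spermatid and spermatocyte markers; red points are the 8 genes, grey points the other genes of a list and black bars the list medians. Aif1, Fcgr3 and Msr1 lie left of their lists' medians of 1.46, 0.33 and 1.08, and Trem2, Lcp1, C1qc and Mrc1 right of theirs, while the spermatid markers have a median of -5.95.

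Markers of other blood cells had medians below that of the myeloid identity list under the main scaling. The counts in this paragraph stand beside 31.3% of all genes past 2-fold upwards and 29.5% downwards. The medians of the neutrophil, T and NK cell, B cell, Leydig cell, endothelial and housekeeping lists changed sign under at least 1 other setting. Neutrophil markers had a median of -0.60 with 2 of 6 higher and 3 lower, between Camp (at least 4.18-fold higher, but 0.55 on the log2 scale with normexp) and Mpo (5.59-fold lower), and 5 more were below background on both arrays. B cell markers had a median of -0.74 with 1 of 8 higher and 3 lower, between Cr2 (2.31) and Pax5 (-2.20 or below). The other Cr2 probe was at least 4.60-fold lower, the median over both was 0.05, and with normexp neither Cr2 nor Pax5 reached 2-fold. The 5 mast cell markers compared did not reach 2-fold by main value or bound, between Cma1 at 0.00 and Tpsb2 at -0.79 or below. Tpsb2, Cpa3 and Mcpt4 were below background on the busulphan array, so their bounds do not place them within 2-fold. With measured values in place of bounds Cpa3 stood at -2.93. For red blood cells, 1 of 5 genes was higher and 2 were lower (median -0.77), from Hemgn at -6.28 to Alas2 at 2.56. Of the testis cells other than germ and Sertoli cells, Leydig cell markers had a median of -0.07 with 2 of 8 higher and 1 lower, from Hsd17b3 at -1.93 (-0.87 with normexp) to Akr1b7 at 4.16. Peritubular myoid markers had a median of 0.90 with 3 of 7 higher, from Actg2 at -0.75 to Ptch1 at 1.76, and endothelial markers one of 0.19 with 3 of 10 higher and 3 lower, from Sox17 at -3.31 to Robo4 at 2.85. Housekeeping genes had a median of 0.04 with 5 of 15 higher and 4 lower, from Tbp at -3.49 to B2m at 2.06.

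Genes that lie close to the 8 on the chromosome were set beside them. Probes within 100 kb were taken by the positions of the files, and Mrc1 and Msr1 had no other compared gene in that distance. Aif1 lies in the MHC class III region, where the 14 neighbours had a median of -0.73, with 6 past 2-fold downwards and 3 upwards, beside 29.5% and 31.3% of all genes. Toward lower coordinates Gpank1 was 6.86-fold lower, at 2636 on the busulphan and 20892 on the control array. Prrc2a and the chaperone gene Bag6, by its brightest probe, were 4.31-fold and 4.69-fold lower, and Csnk2b, a kinase subunit saturated in the control, at least 4.50-fold lower. Toward higher coordinates the cytokine genes Ltb, Tnf and Lta stood at log2 ratios of -1.44, 0.84 and 1.40. The helicase gene Ddx39b stood at 1.16 and H2-D1, an MHC class I gene, at 2.44.

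Around Fcgr3 the 3 neighbours were Fcgr2b (2.24), Fcgr4 (-0.02) and the respiratory chain gene Sdhc (0.81). The C1qb probe lies 9.19 kb from that of C1qc and 15.8 kb from that of C1qa, and Epha8, on the far side of them, stood at 0.58.

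**Figure D4:**
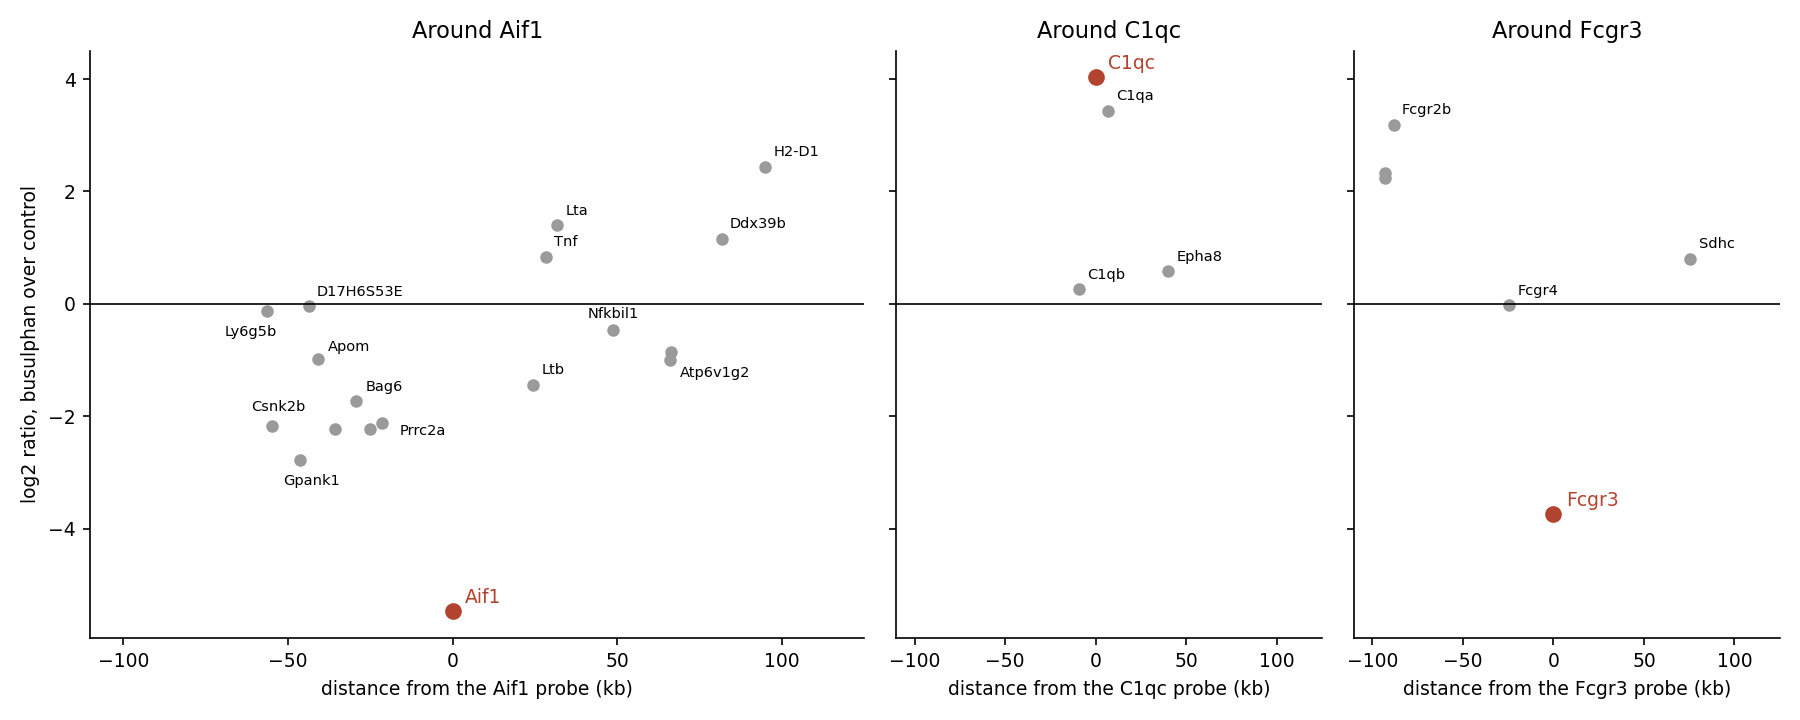
Log2 ratio of busulphan over control against the distance in kb from the brightest probe of Aif1, C1qc and Fcgr3 (red), with 1 grey point for each other compared probe within 100 kb. Values or bounds of the Aif1 neighbours run from -2.78 to 2.44, and C1qc and C1qa lie at 4.03 and 3.44 beside C1qb at 0.27.

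The sequence before the annotated start was compared for GAGGAA, the core to which PU.1 is known to bind, read as GAGGAA or TTCCTC in the 250 bases upstream on build GRCm38.p6 (RefSeq). Entries matched 7 of the 8 genes, and Msr1 is named only. Of all 32851 promoters 23.3% held the letters. The 7 genes have 9 promoters, and 6 of the 7 held the letters in at least 1 promoter, on both sides of the contrast. Lcp1 was the 1 without. The background counts single promoters and the members are counted as genes, so these shares are not of the same unit. One promoter of each direction is shown, 5′ to 3′ on the gene's strand, with the match in capitals. In Aif1 the match begins 7 bases and in Trem2 40 bases before the end of the window. A match is a description and not a site of binding.
Aif1, chr17:35176053-35176302, minus strand: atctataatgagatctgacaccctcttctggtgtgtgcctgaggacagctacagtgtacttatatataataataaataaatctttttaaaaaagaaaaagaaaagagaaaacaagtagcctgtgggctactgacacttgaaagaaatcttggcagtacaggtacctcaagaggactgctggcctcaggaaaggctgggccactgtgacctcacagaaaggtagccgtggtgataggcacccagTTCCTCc
Trem2, chr17:48346151-48346400, plus strand: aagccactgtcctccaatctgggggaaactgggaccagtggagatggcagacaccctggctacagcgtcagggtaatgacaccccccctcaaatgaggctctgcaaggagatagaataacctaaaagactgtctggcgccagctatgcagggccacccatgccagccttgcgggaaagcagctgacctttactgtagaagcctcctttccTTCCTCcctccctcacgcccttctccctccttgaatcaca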

How the data were processed

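The authors deposited 1 scanner table per array, whose intensity column was written by version 11.5.1.1 of Feature Extraction (Agilent), per the file headers, after background subtraction, spatial detrending and surrogate values for dim spots. The log2 table deposited by the authors is the log of that signal shifted by a constant, 9.82 on the busulphan and 10.03 on the control array. Its medians are -2.77 and -2.94, and it has 1 column per array with no centring of genes, so none of scale, centring and direction is unknown.

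Here each array's processed signal was divided by its 75th percentile over 15208 non-control probes before log2, a signal of 905 on the busulphan and 1046 on the control array. The 4 probes with outlier marks on either array were left out, as were probes below background on both. A gene took its brightest probe. A spot saturated, or not well above background, on 1 array gives a bound, written as at least so many fold: bright value against the higher of the dim value and the array's lowest well-above signal. Bounds that ran against the measured direction left 8 genes with no fold, counted as 0. Gene symbols came from the files' accessions through GRCm38.p6 for 13300 probes, and 1908 kept the files' name. The 18 saturated probes of the busulphan and 106 of the control array limit bright genes.

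With 1 array per group a gene was called by size, 2-fold either way, with no test and no error rate. Alternatives were normexp (offset 50, limma 3.58.1), 8 other scalings or sources, 2 filters on dim probes, the median over probes, measured values for bounds, no saturated probes, and thresholds of 1.5-fold and 4-fold. Named genes are the 8, 14 partner genes where present (Cd68, Aif1l and Pls3 were not compared), the 2 highest and 2 lowest of each myeloid list, the highest and lowest of other lists, and genes within 100 kb. Apoe, Syk, Itgam, Cebpa, Cd3e, Dock2, Rac2, Inpp5d, Pik3ap1, Lat2, Cx3cr1, Itgax and Maf fall outside this rule. They were named after their values were seen. No genes were named for likeness of pattern, since 2 arrays give 1 ratio per gene. The members, lists and alternatives were chosen with earlier results of these data known.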

Additional observations from a re-analysis of the deposited data

How the results depend on the processing

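The counts of 4 higher and 3 lower genes among the 8 were the same under all 16 alternatives, thresholds of 1.5-fold and 4-fold included, and C1qb was within 1.5-fold under all of them except spike-in scaling (log2 -0.63), where it stayed within 2-fold. Some alternatives, such as the filters on dim probes, could not change these genes, whose probes were all well above background. The counts over all genes, 2952 higher and 2784 lower, became 1510 and 4396 with spike-in scaling, which put the median of all genes at -0.82, against 0.07, and 1360 and 1674 at 4-fold, a stricter limit by construction. None of the 7 ratios past 2-fold among the 8 genes, and no list median past 1 in size, changed sign under the 14 alternatives run on it, while the smaller medians of the neutrophil, T and NK cell, B cell, Leydig cell, endothelial and housekeeping lists did. Of the ratios of single genes and the list medians under the alternatives, 115 moved by more than the software error and 263 did not. That tally does not measure stability. Several scalings shift all ratios by a single constant, and some settings could not change a value. List medians were set against the median software error of single genes, which is not an error of a median. Folds of Lcp1, Trem2, C1qc and Msr1 have a dim spot on 1 array and were smaller with normexp, and that of Aif1 is limited by saturation. Folds of Pf4, Folr2, Olr1, Fmnl1, Cd33 and Dock2 in the lists also have a dim spot on 1 array and were smaller with normexp. Differences in cell isolation, labelling or hybridisation cannot be told apart from the treatment with 1 array on each side. No paired analysis was possible because each group has 1 sample.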

Other observations

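Some genes named for lymphocytes had low ratios of the size of Aif1. Cd3d, a chain of the T cell receptor complex, had a signal of 35.1 on the busulphan and 3467 on the control array, 85.5-fold lower, while Cd3e (26.4 and 22.1 on those arrays) was level and Lck, a T cell kinase, was 4.25-fold higher. The T and NK cell markers had a median of 0.14, which was negative under some other settings, spike-in scaling among them, with 1 of 9 higher and 4 lower. Itgae, the integrin CD103 of dendritic cells and tissue lymphocytes, was 25.7-fold lower at 530 on the busulphan and 15757 on the control array, and its other probe was below background on the busulphan array. The dendritic cell markers had a median of -1.46, with none of 6 higher and 4 lower, and Batf3 the highest at 0.74. Of all genes, 31.3% were past 2-fold upwards and 29.5% downwards.

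Of the 3 neighbours within 100 kb of Trem2, 1 was past 2-fold downwards, beside 29.5% of all genes. This was Apobec2, 67.1 kb away, 15.6-fold lower at 20.7 on the busulphan and 373 on the control array, while Nfya stood at 0.38 by its brighter probe (other probe -0.77) and Treml1 at -0.39. The 1 neighbour of Lcp1, Cpb2, was 5.12-fold lower, at 68.3 on the busulphan and 404 on the control array.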
